A study of Mus musculus with 6 samples.

Results

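Glutathione S-transferases were measured in the livers of 3 PiZ mice and 3 wild-type mice, all 6 weeks old and on a C57BL/6 background, with 1 Affymetrix array per animal. PiZ mice express the Z variant of human alpha-1 antitrypsin from a transgene, which misfolds and builds up in the endoplasmic reticulum of hepatocytes. The labels give neither the sex of the animals nor the promoter or founder line of the transgene. If the sexes were unevenly divided between the groups, their effect could not be told apart from that of the genotype. The comparison asks which transferases differ in liver that makes the mutant protein. The members are 10 genes of the alpha, mu, pi and theta classes, taken as all probe sets (groups of short probes that together read a transcript) that the platform annotation assigns to exactly 1 of them. This gave 15 probe sets of 22626, and 1 further probe set was left out because it names Gsta2 together with other genes.

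Glutathione S-transferases join the tripeptide glutathione to reactive, electrophilic compounds, so that these can be exported from the cell and degraded. The soluble enzymes work as pairs of subunits and are grouped into classes by sequence, each class having its own range of substrates. They are abundant in hepatocytes, and several alpha and mu class genes are classical targets of the oxidative stress factor NRF2, which binds antioxidant response elements, and of the xenobiotic receptors.

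All values are log2 intensities, so that a difference of 1 is a doubling, and differences are PiZ minus wild-type from limma with its standard error (SE). A probe set was called where the limma p-value, adjusted by Benjamini-Hochberg over all 22626 probe sets, was below 0.05. The number of arrays limits the precision (n = 3 per group throughout). Since fewer hepatocytes and less RNA per hepatocyte cannot be told apart in whole liver, every difference is one of the tissue. Among all probe sets, 8.93% were called higher and 10.2% lower in PiZ. Higher ones made up 46.6% of the calls, and 27.2% after centring the arrays on 11 reference genes. Of these, 4 were themselves called higher and 2 lower, among them Tfrc (1.44) and Gusb (-1.18).

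The PiZ arrays were not alike. Control probe sets for both ends of the Gapdh and beta-actin transcripts show how intact the RNA was, since shortened RNA gives less 5′ than 3′ signal. The 3′ minus 5′ difference on the log2 scale, averaged over both transcripts, was 4.64 and 4.33 in PiZ replicates 2 and 3 and 2.50 in PiZ replicate 1, against 2.20 to 2.70 in wild-type livers. Across genes, the Pearson correlation was 0.993 between PiZ replicates 2 and 3, 0.980 and 0.984 between PiZ replicate 1 and these, and 0.996 to 0.997 among the wild-type arrays. Of 6 hepatocyte markers, read by their brightest probe sets, Alb, Ttr and Apoa1 were above 14 on every array, as liver should be. Tat was called higher (1.12). Tdo2 (-1.12, limma adjusted p = 0.0578) and Cyp2e1 (-0.21) were not called. The summed intensity of the 6 was 100668 and 102369 in PiZ replicates 3 and 2 and 116554 in PiZ replicate 1, against 117941 to 121220 in wild-type livers. Of 5 measured bile duct markers, 6 stellate cell markers and 6 endothelial markers 0 were called in their brightest probe sets. Of the endothelial markers, Lyve1 (0.67) and Clec4g (0.56) were called higher in another probe set. Of 6 macrophage markers 3 were higher in PiZ (Clec4f, Marco and Cd5l), while Adgre1 (-0.10), Cd68 (0.07) and Csf1r (0.29) were not called. Their summed intensity, to which Cd5l and Csf1r as the brightest gave most, was 7635 to 9297 in PiZ and 5820 to 6013 in wild-type. Of 4 leukocyte markers the neutrophil genes S100a8 and S100a9 were higher, while Ptprc (0.32) and Cd3e (0.03) were not called. The leukocyte sums were 840.2 to 1118 in PiZ and 397.4 to 519.7 in wild-type. What part the hepatocyte and other marker levels have in the transferase levels was not tested.

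Of the 15 member probe sets, 9 rose in PiZ liver and 0 fell, where 8.93% and 10.2% of all probe sets did. They belong to 5 genes: Gsta2 of the alpha class, Gstm1, Gstm2 and Gstm3 of the mu class, and Gstt2 of the theta class. The median of the members was 0.68, against 0.08 for all probe sets. In 12 of the 15 the PiZ values lay wholly above the wild-type values, which held for 23.4% of all probe sets. Groups without overlap in either direction made up 42.0% of them. Probe sets of 1 gene share a transcript and are not independent of each other, and 4 of the 9 that rose read Gstm1. The means of the members exceeded those of 73.0% to 99.9% of all probe sets.

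**Figure D1:**
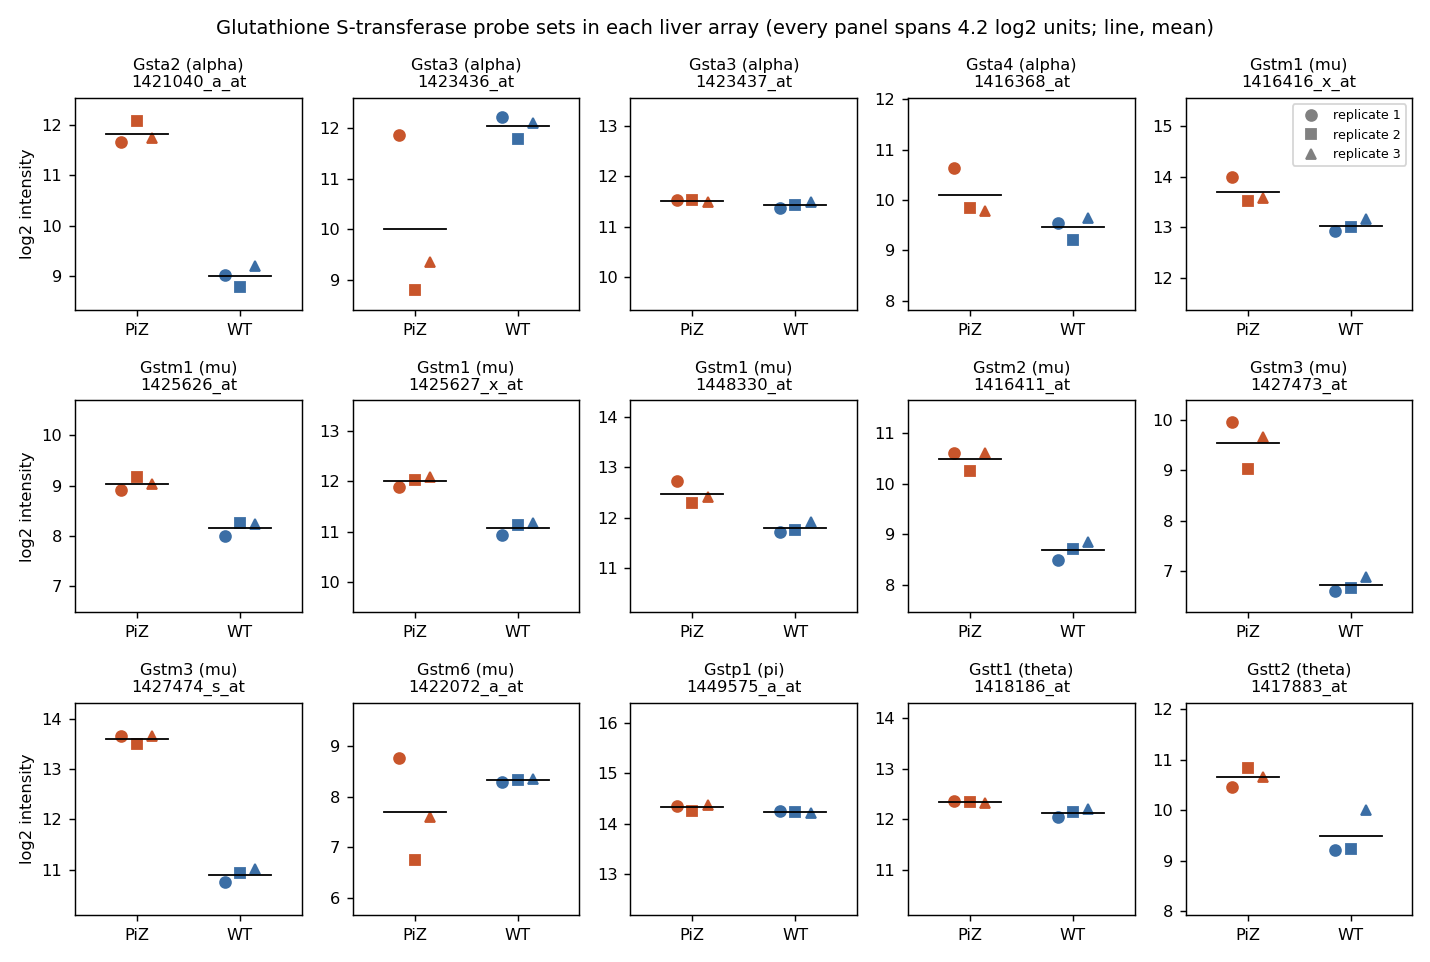
Log2 intensity of each of the 15 member probe sets on the 3 PiZ (left) and 3 wild-type (right) arrays, 1 point per array with the symbol giving the replicate and a line at the group mean. Gsta2, Gstm2 and both Gstm3 probe sets are clearly apart between the groups, while in Gsta3 1423436_at and Gstm6 only PiZ replicates 2 and 3 lie below wild-type.

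In the alpha class, Gsta2 rose about 7-fold in PiZ liver, while neither probe set of Gsta3 and not that of Gsta4 passed the test. Gsta2 encodes an alpha subunit that can be induced through NRF2. It read 11.66, 12.07 and 11.74 in PiZ livers, against 9.03, 8.79 and 9.19 in wild-type livers. The groups were far apart, and the lowest PiZ value exceeded the highest wild-type value by more than the spread within either group. The difference was 2.82 (SE 0.16, limma adjusted p = 0.000188), or 7.07-fold. It passed under all 16 alternative settings, between 2.66 and 2.95. The rise rests on 1 probe set, and whether its probes also match other alpha class genes was not determined. The RefSeq promoter window of Gsta2 (GRCm38.p6, chr9:78347096-78347395, minus strand, from 250 bases before the start to 50 after it) is shown as that of the member with the largest rise outside the mu class.
Gsta2: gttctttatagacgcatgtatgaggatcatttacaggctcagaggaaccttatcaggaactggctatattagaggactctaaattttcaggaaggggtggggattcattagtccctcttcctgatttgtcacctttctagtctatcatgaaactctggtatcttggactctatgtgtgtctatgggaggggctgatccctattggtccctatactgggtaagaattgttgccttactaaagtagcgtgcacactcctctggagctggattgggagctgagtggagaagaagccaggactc

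Gsta3, the alpha subunit that protects mouse liver from aflatoxin, gave different readings with its 2 probe sets. Probe set 1423437_at read 11.52, 11.54 and 11.48 in PiZ livers and 11.36, 11.43 and 11.48 in wild-type livers. The groups overlapped, with a difference of 0.09 (95% interval -0.15 to 0.32, limma adjusted p = 0.556). Probe set 1423436_at read 11.86, 8.79 and 9.35 in PiZ livers, against 12.21, 11.79 and 12.11 in wild-type livers. PiZ replicate 1 thus lay within the wild-type range, and PiZ replicates 2 and 3, the arrays with the large end difference of the control transcripts, lay 3.25 and 2.68 below the wild-type mean. The difference of -2.04 (SE 0.71) did not pass (limma adjusted p = 0.0807). Without PiZ replicate 1 it was -2.97 with adjusted p = 5.74e-05, and with the end difference as a covariate it was -0.05. Among the PiZ arrays only replicate 1 had an end difference near wild-type, so the covariate fit rests mainly on it. That array alone against wild-type gave -0.17. What part the state of the RNA has in these readings was not tested. Which part of the transcript each probe set reads was not determined here.

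Its window (GRCm38.p6, chr1:21240335-21240634, plus strand) is shown because it alone among 11 windows of 8 members held the core letters of the antioxidant response element, TGACNNNGC on either strand, given in capitals, which begin 121 bases before the start.
Gsta3: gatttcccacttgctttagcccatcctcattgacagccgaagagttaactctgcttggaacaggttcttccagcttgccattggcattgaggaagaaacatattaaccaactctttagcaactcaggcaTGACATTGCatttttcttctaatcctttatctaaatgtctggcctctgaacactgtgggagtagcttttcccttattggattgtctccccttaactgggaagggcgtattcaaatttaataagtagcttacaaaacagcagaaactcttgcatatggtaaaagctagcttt
Of all 32851 promoter windows of the same length, 12.4% held these letters. Windows were matched for Gsta2, Gsta3, Gstm1, Gstm2, Gstm3, Gstm6, Gstp1 and Gstt1. A match is a description of the sequence only, and so is its absence from the window of Gsta2.

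Gsta4, whose product clears 4-hydroxynonenal from lipid peroxidation, read 10.63, 9.85 and 9.78 in PiZ livers, against 9.54, 9.21 and 9.64 in wild-type livers. All PiZ values lay above wild-type, replicate 1 by the widest margin. The difference of 0.63 (95% interval 0.06 to 1.19) did not pass (limma adjusted p = 0.105). PiZ replicate 1 alone against wild-type gave 1.17. The end difference as a covariate gave 1.23 with adjusted p = 0.00457. This fit also rests mainly on PiZ replicate 1, so it is no separate support. The difference of Gsta4 also passed after cyclic loess (0.75, adjusted p = 0.0471) and further quantile normalization (0.74, adjusted p = 0.0459).

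**Figure D2:**
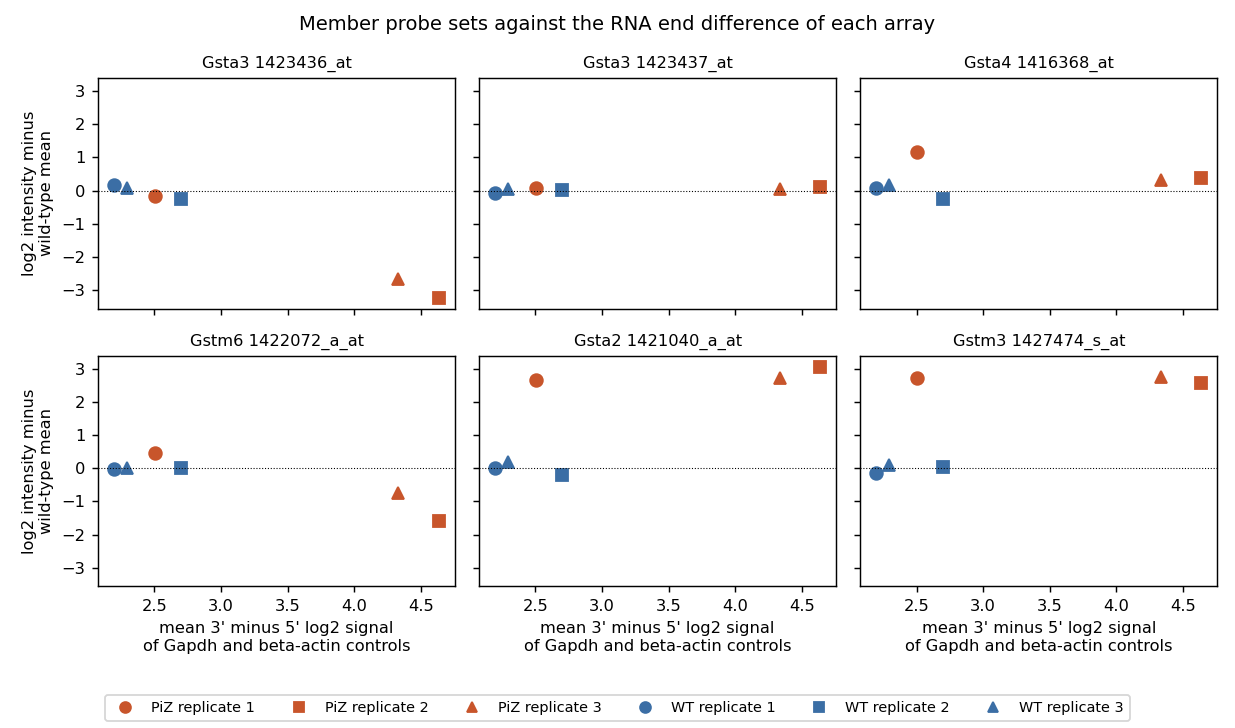
Log2 intensity of 6 member probe sets minus their wild-type mean (vertical axis) against the mean 3′ minus 5′ log2 signal of the Gapdh and beta-actin controls (horizontal axis), 1 point per array, PiZ in orange and wild-type in blue. Gsta3 1423436_at and Gstm6 are low on the 2 PiZ arrays above 4 on the horizontal axis, whereas Gsta2 and Gstm3 are high on all 3 PiZ arrays.

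In the mu class 7 of 8 probe sets were higher in PiZ, 4 of them reading Gstm1, and the probe sets ran from -0.62 for Gstm6 to 2.83 for Gstm3. Gstm3, a mu subunit that is strongly inducible in mouse liver, rose about as much as Gsta2 in both of its probe sets. Probe set 1427474_s_at read 13.64, 13.50 and 13.66 in PiZ livers, against 10.76, 10.94 and 11.02 in wild-type livers. The 3 PiZ values lay within 0.2 of each other, including the arrays with the larger end difference. The difference was 2.70 (SE 0.12, limma adjusted p = 5.10e-05), or 6.48-fold. Probe set 1427473_at read 9.96, 9.03 and 9.65 in PiZ livers, against 6.60, 6.66 and 6.89 in wild-type livers, a difference of 2.83 (SE 0.23, limma adjusted p = 0.000937). Neither lost its call under any of the alternatives in which it was tested. The ending s_at marks probes that can match more than 1 transcript, so part of the first signal may come from close relatives of Gstm3.

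Gstm2, another mu subunit, rose 3.48-fold. It read 10.61, 10.24 and 10.60 in PiZ livers, against 8.49, 8.71 and 8.84 in wild-type livers. The groups were apart by more than 1 log2 unit, with a difference of 1.80 (SE 0.15, limma adjusted p = 0.00101).

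Gstm1, the main constitutive mu subunit of mouse liver, rose by a smaller amount in all 4 of its probe sets, between 0.67 and 0.92 on the log2 scale. Probe set 1425627_x_at read 11.89, 12.03 and 12.07 in PiZ livers, against 10.93, 11.13 and 11.17 in wild-type livers, a difference of 0.92 (SE 0.12, limma adjusted p = 0.00383). Probe set 1425626_at, taken from the same database record, differed by 0.87 (SE 0.12, limma adjusted p = 0.00553). In these 2 probe sets PiZ replicate 1 was the lowest PiZ array. Probe set 1416416_x_at read 14.002, 13.52 and 13.58 in PiZ livers, against 12.92, 13.00 and 13.16 in wild-type livers, a difference of 0.67 (SE 0.15, limma adjusted p = 0.0251). Probe set 1448330_at, from the same record as the last, differed by 0.68 (SE 0.14, limma adjusted p = 0.0189). In this second pair PiZ replicate 1 was the highest PiZ array, so the order of the PiZ animals depended on the probe set, while all 4 gave groups without overlap. The second pair lost its calls without PiZ replicate 3 (adjusted p = 0.0588 for 1416416_x_at and 0.0562 for 1448330_at) and without wild-type replicate 1 (0.106 and 0.0872), 2 (0.0898 and 0.0774) or 3 (0.0696 and 0.0596). The ending x_at marks probes that can cross-hybridise with related sequences.

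Gstm3 and Gstm1 are shown together because the Gstm3 window and 1 of the 2 Gstm1 windows were the most alike of 51 pairs of windows from different members, with 65.2% of the aligned bases identical, against at most 59.7% for the other pairs. The other Gstm1 window, which is not shown, shared 45.9% with Gstm3, the lowest value of the 51 pairs. Capitals mark the longest run that both share, 16 bases that begin 10 bases after the start of Gstm3 (GRCm38.p6, chr3:107969125-107969424, minus strand) and 19 bases after that of Gstm1 (chr3:108017769-108018068, minus strand).
Gstm3: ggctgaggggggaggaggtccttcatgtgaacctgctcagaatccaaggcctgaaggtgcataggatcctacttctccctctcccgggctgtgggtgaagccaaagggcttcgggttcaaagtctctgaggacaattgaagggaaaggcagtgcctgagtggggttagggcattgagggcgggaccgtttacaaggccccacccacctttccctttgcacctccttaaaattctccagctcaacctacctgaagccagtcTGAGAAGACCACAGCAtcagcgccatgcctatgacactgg
Gstm1: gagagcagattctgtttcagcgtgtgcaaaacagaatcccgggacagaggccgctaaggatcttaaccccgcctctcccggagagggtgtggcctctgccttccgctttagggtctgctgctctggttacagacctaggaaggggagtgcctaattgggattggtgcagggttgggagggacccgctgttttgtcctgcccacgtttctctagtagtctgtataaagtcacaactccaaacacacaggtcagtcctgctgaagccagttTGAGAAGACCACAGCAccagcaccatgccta

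Gstm6, a further mu gene, did not follow the others. It read 8.77, 6.74 and 7.59 in PiZ livers, against 8.29, 8.33 and 8.34 in wild-type livers. PiZ replicate 1 lay above all wild-type arrays and PiZ replicates 2 and 3 below them. The difference of -0.62 (95% interval -1.65 to 0.41) did not pass (limma adjusted p = 0.337). Its sign depended on the arrays: PiZ replicate 1 alone gave 0.45, and leaving it out gave -1.16 with adjusted p = 0.00391. The fit of replicate 1 alone holds no spread among PiZ animals, so only its size is given. With the end difference as a covariate, which again rests mainly on PiZ replicate 1, the difference was 0.52 with adjusted p = 0.247.

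The mu genes lie side by side on chromosome 3 in the GRCm38.p6 annotation, in the order Gstm5, Gstm7, Gstm6, Gstm3, Gstm2, Gstm1 and Gstm4. The 4 adjoining genes from Gstm3 to Gstm4 all rose, and the 3 from Gstm5 to Gstm6 were not called. Gstm4, which is no member, read 11.21, 11.43 and 11.35 in PiZ livers, against 9.28, 9.40 and 9.19 in wild-type livers, a difference of 2.04 (SE 0.12, limma adjusted p = 0.000188). Gstm5 differed by -0.40 (SE 0.25, limma adjusted p = 0.273), by 0.21 in PiZ replicate 1 alone, and by -0.70 without that array (adjusted p = 0.00132). Gstm7 differed by -0.57 (SE 0.19, limma adjusted p = 0.0753) in 1 probe set and by 0.15 (SE 0.10, limma adjusted p = 0.299) in the other. The first of these passed as lower in 3 alternatives, with -0.78 and adjusted p = 0.00141 without PiZ replicate 1, adjusted p = 0.00187 with array weights and 0.0369 after centring on reference genes. The order of the genes was looked at after their values were known, and the difference between the neighbours was not tested.

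**Figure D3:**
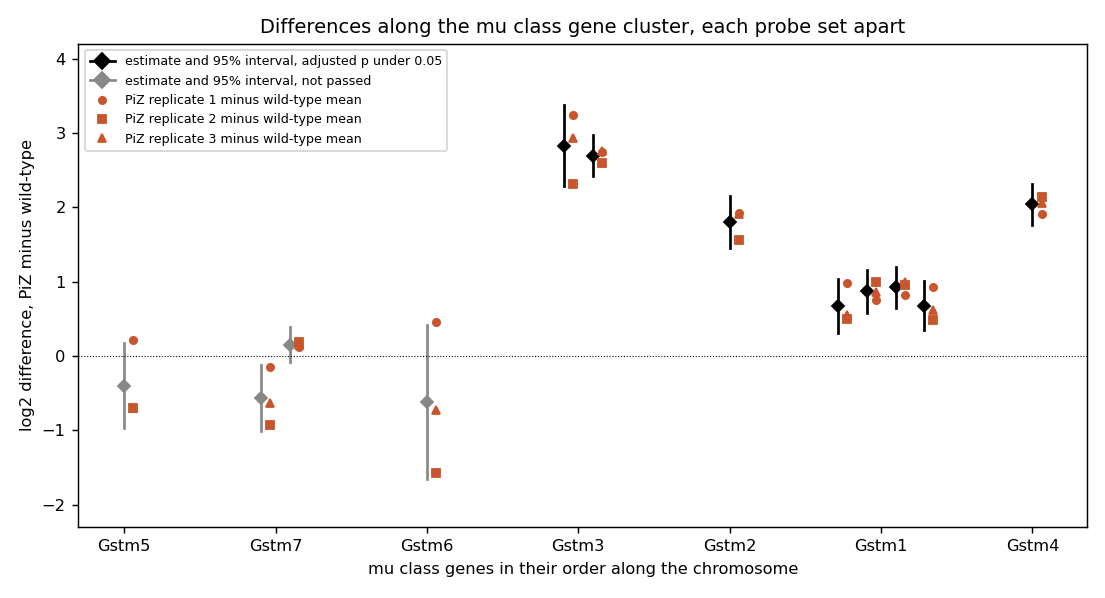
Log2 difference between PiZ and wild-type liver (vertical axis) for each probe set of the 7 mu class genes in chromosomal order (horizontal axis), with limma estimates and 95% intervals, black where called, and orange symbols for each PiZ array minus the wild-type mean. Gstm3, Gstm2, Gstm1 and Gstm4 lie above 0, and Gstm5, Gstm7 and Gstm6 were not called.

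The pi class gene Gstp1 was not called. Gstp1 is among the most abundant transferases of mouse liver, and its product also binds the stress kinase JNK. It read 14.35, 14.25 and 14.37 in PiZ livers, against 14.25, 14.23 and 14.22 in wild-type livers. The PiZ values lay narrowly above wild-type, but the difference of 0.09 (95% interval -0.14 to 0.32) did not pass (limma adjusted p = 0.526). Its mean exceeded that of 99.9% of probe sets, and whether its probes were near saturation was not tested. The nearby pi class gene Gstp3 rose by 1.46 (SE 0.24, limma adjusted p = 0.00927). The window of Gstp1 (GRCm38.p6, chr19:4037863-4038162, minus strand) is shown as that of a member that was not called. Capitals mark a match to TGANTCA on either strand, where N is any base, a pattern that includes AP-1 sites but is wider. It was searched for after the values were seen. The match begins 74 bases before the start, and the pattern occurs in 7.81% of all windows.
Gstp1: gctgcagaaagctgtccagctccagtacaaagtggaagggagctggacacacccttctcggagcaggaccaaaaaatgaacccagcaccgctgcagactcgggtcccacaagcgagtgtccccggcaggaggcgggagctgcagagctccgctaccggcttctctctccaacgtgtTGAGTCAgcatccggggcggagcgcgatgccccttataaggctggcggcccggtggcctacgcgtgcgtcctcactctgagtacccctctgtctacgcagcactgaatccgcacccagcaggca

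Of the 2 theta class genes, which lie close together on chromosome 10, Gstt2 rose and Gstt1 was not called. Gstt2 read 10.47, 10.84 and 10.67 in PiZ livers, against 9.21, 9.23 and 10.002 in wild-type livers. Wild-type replicate 3 stood well above the other wild-type arrays but below every PiZ array. The difference was 1.18 (SE 0.23, limma adjusted p = 0.0143), or 2.26-fold. The call was lost in 6 of 16 alternatives. The limma adjusted p was 0.0501 and 0.0562 without PiZ replicate 2 or 3, and 0.0649 and 0.0608 without wild-type replicate 1 or 2. It was 0.076 with the end difference as a covariate. The remaining loss was in PiZ replicate 1 alone, where the difference was 0.99 and no spread among PiZ animals enters. Gstt1, which in other settings activates some dihalomethanes, read 12.36, 12.35 and 12.32 in PiZ livers, against 12.05, 12.15 and 12.20 in wild-type livers. The groups did not overlap, and the difference of 0.21 (95% interval -0.03 to 0.45) did not pass (limma adjusted p = 0.172).

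**Figure D4:**
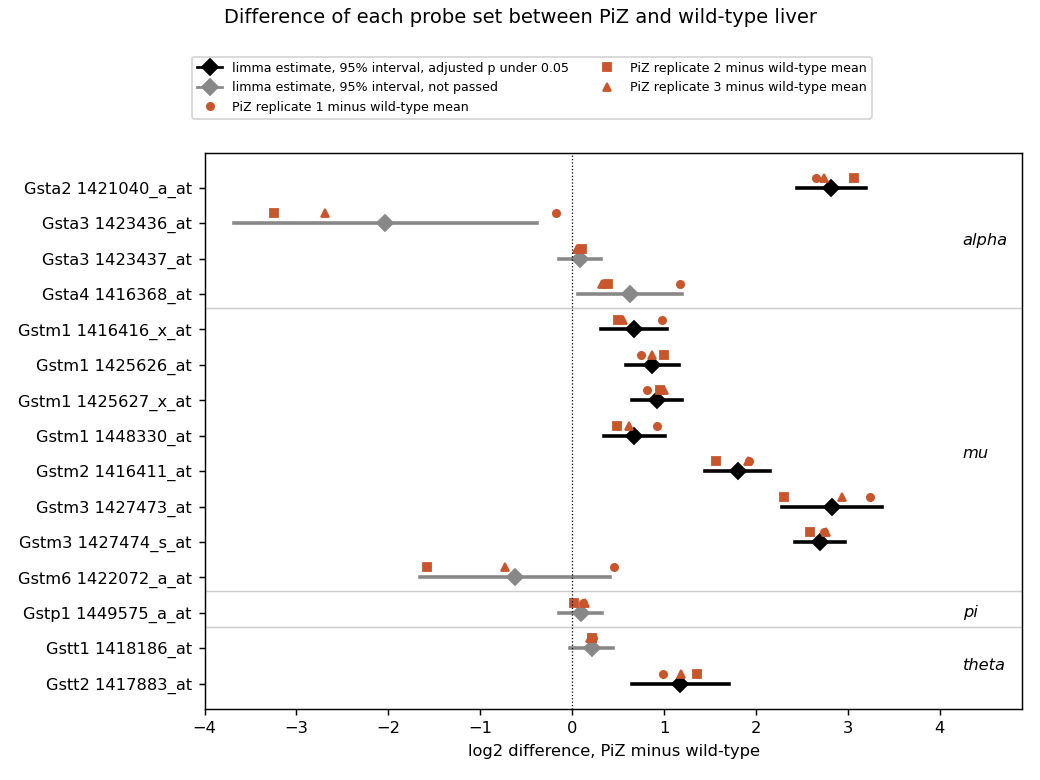
Log2 difference between PiZ and wild-type liver (horizontal axis) for the 15 member probe sets by class, with limma estimates and 95% intervals, black where the adjusted p was below 0.05 and grey where not, and orange symbols for each PiZ array minus the wild-type mean. The intervals of Gsta2 and Gstm3 lie above 2, and those of Gsta3 1423436_at and Gstm6 are the widest.

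The genes whose 6 array values, each centred on the wild-type mean, lay closest to those of Gstm3 1427473_at were Lcn2, Gpx2, Creld2, Cyp2b9 and Ica1, among 12383 genes. The Euclidean distances over the 6 arrays ran from 0.575 for Lcn2, an iron-siderophore carrier of the acute phase, to 0.835 for Ica1. Gpx2 is a glutathione peroxidase, Creld2 a protein of the endoplasmic reticulum and Cyp2b9 a cytochrome P450. Their log2 differences lay between 2.52 for Ica1 and 3.15 for Cyp2b9. Values near the 2.83 of Gstm3 1427473_at follow from choosing genes by closeness to it.

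Other genes of glutathione metabolism were read by their brightest probe set, among which 9.99% of all genes were called higher and 11.2% lower. Of 18 measured other transferases and related proteins of the superfamily, 4 rose and 1 fell (median 0.10, against 0.08 for all genes). The risers were Gstm4, Gstp3, the microsomal transferase Mgst2, up by 1.66 (SE 0.22, limma adjusted p = 0.00423), and Ptges, a prostaglandin E synthase, up by 0.83 (SE 0.14, limma adjusted p = 0.0105). The zeta class gene Gstz1, an enzyme of tyrosine breakdown, fell by 0.71 (SE 0.20, limma adjusted p = 0.0457), a call lost in 8 of 16 alternatives.

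Of 13 measured genes that supply cysteine and make glutathione, 2 rose and 3 fell (median 0.06). Slc3a2, the heavy chain shared by several amino acid transporters, rose by 1.90 (SE 0.19, limma adjusted p = 0.00197), and its partner Slc7a11, the cystine importer, by 0.65 (SE 0.11, limma adjusted p = 0.00931). Slc7a11 read 4.01 to 4.17 in PiZ livers and 3.32 to 3.51 in wild-type livers, below the lower quartile of all probe sets (4.364 on average over the arrays), and the filter on dim probe sets removed it. Slc3a1, the partner of the epithelial cystine transporter, fell by 1.63 (SE 0.11, limma adjusted p = 0.000373). Gclm, the regulatory subunit of the first enzyme of glutathione synthesis and an NRF2 target, fell by 0.56 (SE 0.11, limma adjusted p = 0.0169). Ahcy, which hydrolyses S-adenosylhomocysteine, fell by 0.54 (SE 0.15, limma adjusted p = 0.0437). The calls of Gclm and Ahcy were lost in 5 and 8 of 16 alternatives.

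Of 17 measured genes of peroxidases and glutathione-linked redox enzymes, 5 rose and 3 fell (median 0.00092). The peroxidases Gpx2, Gpx3 and Gpx4 rose by 2.80 (SE 0.27), 2.12 (SE 0.16) and 1.09 (SE 0.11), with limma adjusted p of 0.00167, 0.000707 and 0.00191. A second probe set of Gpx4 read 0.65 and was not called. Pgd, an NADPH-forming enzyme of the pentose phosphate pathway, rose by 1.33 (SE 0.19, limma adjusted p = 0.00584). Adh5, which acts on the glutathione adducts of formaldehyde and nitric oxide, fell by 0.59 (SE 0.13, limma adjusted p = 0.0227), and the glyoxalase Glo1 by 0.57 (SE 0.16, limma adjusted p = 0.0462). Both of these falls lost their call in 7 of 16 alternatives, and the 3 probe sets of Glo1 ran from -1.83 to -0.57.

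Of 17 measured genes that export glutathione conjugates or break glutathione down, 5 rose and 2 fell (median 0.11). Abcc2 (Mrp2), the canalicular conjugate pump, was higher by 0.92 (SE 0.17, limma adjusted p = 0.0132), and Ggct, a cyclotransferase, by 0.69 (SE 0.11, limma adjusted p = 0.00692). The peptidases Cndp2 and Dpep1 rose by 0.93 (SE 0.21) and 0.84 (SE 0.21), with limma adjusted p of 0.0241 and 0.0342, and each lost its call in 8 of 16 alternatives. The second probe sets of Cndp2, Dpep1 and Ggct read 0.23, -0.09 and 0.16 and were not called. Chac2, which cleaves glutathione in the cytosol, fell by 1.35 (SE 0.16, limma adjusted p = 0.00295), and the aminopeptidase Anpep by 0.51 (SE 0.10, limma adjusted p = 0.0165).

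**Figure D5:**
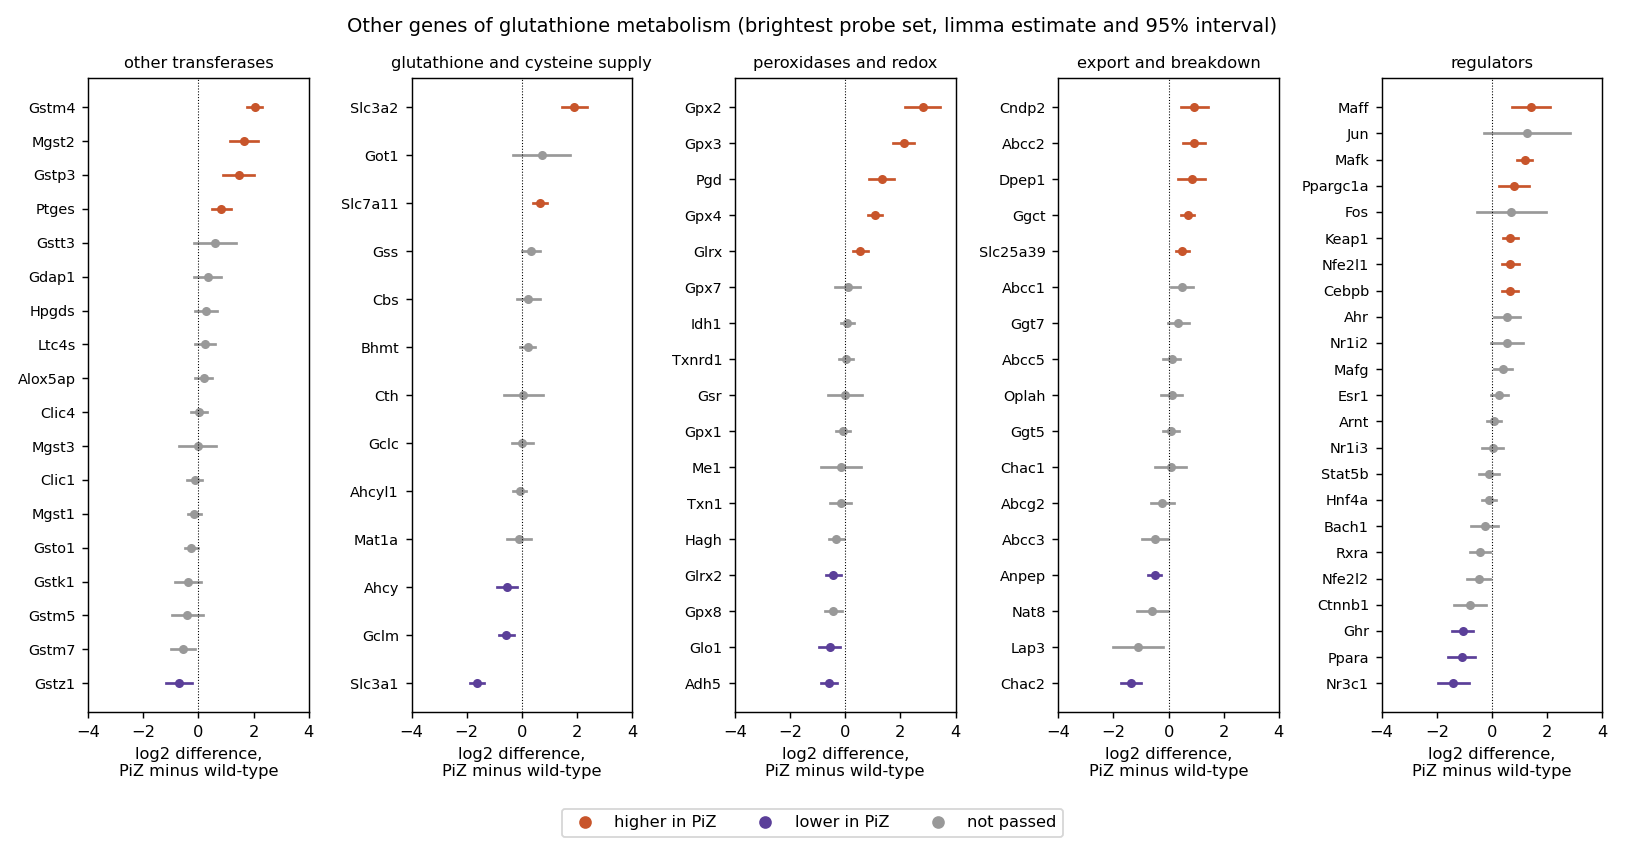
Log2 difference between PiZ and wild-type liver (horizontal axis) for the genes of 5 lists, each gene by its brightest probe set with the limma estimate and 95% interval, orange where higher in PiZ, purple where lower and grey where not called. Gstm4, Slc3a2 and Gpx2 stand at the top of their lists.

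Of 23 measured regulators of transferase genes or liver metabolism, 6 rose and 3 fell (median 0.26). Nfe2l2, the gene of NRF2, read 9.67, 9.25 and 9.19 in PiZ livers, against 9.70, 9.72 and 10.12 in wild-type livers, and its difference of -0.48 (SE 0.18) did not pass (limma adjusted p = 0.095), but passed without PiZ replicate 1 (-0.63, adjusted p = 0.00979). NRF2 is regulated mainly through the stability of the protein, which arrays do not measure. Keap1, its inhibitor, rose by 0.67 (SE 0.12, limma adjusted p = 0.0124) in its brighter probe set and read -0.08 in the other. The related gene Nfe2l1 rose by 0.67 (SE 0.13, limma adjusted p = 0.0162), a call lost in 5 of 16 alternatives. The small Maf genes Maff and Mafk, whose products pair with NRF2, rose by 1.41 (SE 0.29, limma adjusted p = 0.0179) and 1.19 (SE 0.12, limma adjusted p = 0.00183). The coactivator Ppargc1a rose by 0.80 (SE 0.23, limma adjusted p = 0.0474), a call lost in 6 of 16 alternatives, and only 1 of its 5 probe sets was called, with a range from -0.29 to 0.80. The growth hormone receptor Ghr fell by 1.06 (SE 0.17), the fatty acid receptor Ppara by 1.11 (SE 0.21) and the glucocorticoid receptor Nr3c1 by 1.40 (SE 0.24), with limma adjusted p of 0.00776, 0.0133 and 0.0102, and the 3 probe sets of Nr3c1 ran from -1.40 to -0.02.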

How the data were processed

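Liver RNA of 3 PiZ and 3 wild-type mice was hybridised to one-colour arrays. The authors deposited 1 log2 intensity for each probe set and array, made with the affy package and RMA (background correction, quantile normalization between arrays and summary per probe set), per the submitters' processing notes. The sources used here give no versions, chip definition or filters, and the log2 scale was read from the values (2.3 to 14.98). RMA takes out any shift that most transcripts have in common. The 64 array controls were left out. Platform annotation named 1 gene for 20380 probe sets, several for 691 and none for 1555. The Entrez identifiers of 20351 were found in the GRCm38.p6 RefSeq table, and 0 symbols changed. The files name no build, so only the RefSeq promoter windows carry coordinates.

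PiZ was set against wild-type in R 4.3.3 with limma 3.58.1 (lmFit, eBayes, two-sided, no covariate), with Benjamini-Hochberg adjustment over 22626 probe sets at 0.05, after a test on simulated data. Every member was named. Of each list up to 6 called genes were named by size, beside Keap1, Nfe2l1, Nfe2l2, the other mu genes and the 5 nearest genes. Keap1, Nfe2l1, Nfe2l2 and the other mu genes were chosen after their values were seen. Members and lists were chosen with earlier results of these data known. Promoter windows were aligned with Biopython 1.88 (global, match 1, mismatch -1, gap opening -5, extension -0.5). Replicates are biological per the labels. The 16 alternatives changed the unit tested, the filter, scaling, variance model, weights, covariate or block, or left out arrays. With PiZ replicate 1 alone the PiZ group is 1 array, so calls in that setting hold no spread among PiZ animals. For genes that are no members they were run after seeing the data.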

Additional observations from a re-analysis of the deposited data

How the results depend on the processing

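Over 16 alternatives, 209 of 235 values of member probe sets kept their direction and their side of the threshold, 14 lost the call, 10 gained one and 2 changed sign. Gsta2, Gstm2, both Gstm3 probe sets and Gstm1 1425626_at and 1425627_x_at were called wherever they were tested. The sign changed for Gstm6, to 0.52 with the end difference in the model and to 0.45 in PiZ replicate 1 alone, and for Gstm5, to 0.24 and 0.21. Both settings rest mainly on PiZ replicate 1 and are not independent of each other. The cause was not tested. The 9 member probe sets called higher became 5 of 10 with 1 probe set per gene, since fewer probe sets were tested. The count was 10 after cyclic loess and after further quantile normalization, Gsta4 passing in each, and 6 to 9 when 1 array was left out. With the end difference as a covariate it stayed 9, as Gsta4 gained its call and Gstt2 lost it. The 0 called lower became 1 after centring on reference genes, 2 with array weights, 1 with the replicate block and 0 to 2 when 1 array was left out. Gsta3 1423436_at accounts for the single call under centring (-2.07, limma adjusted p = 0.0335) and under the block (-2.04, adjusted p = 0.0276), and Gstm6 joins it with array weights and without PiZ replicate 1. Among all probe sets, 4331 were called, against 10986 with array weights, 2812 with the covariate, 5189 with the replicate block and 1239 to 10547 when 1 array was left out, the highest without PiZ replicate 1. Deviations from the group means of same-numbered PiZ and wild-type arrays correlated at 0.30, 0.30 and -0.04. Those of PiZ replicate 3 and wild-type replicate 2 correlated at 0.29. With 3 arrays per group these values cannot show whether the numbers pair the animals. For named genes that are no members, the alternatives were chosen after seeing the data. Among these, beside the losses given above, calls were lost for Anpep in 6 alternatives, for Maff and Keap1 in 4, for Abcc2 and Ppara in 3, for Ptges in 2 and for Slc7a11 and Nr3c1 in 1. Calls as lower were gained by 1 probe set of Gstm7 in 3 alternatives and by Gstm5 and Nfe2l2 in 2, with array weights and without PiZ replicate 1 for each. The files hold no detection calls, so signal over background could not be judged.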
